A study of Mus musculus with 2 samples.

Results

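The 7 genes described here, Trem2, Gpnmb, Spp1, Lgals3, Lpl, Fabp5 and Arg1, are genes associated with lipid-loaded macrophages of tumors, out of 18319 genes named in a table of cell clusters. They were chosen by name, with their folds in that table known, so those folds are given as a description without a test. The table comes from single-cell RNA sequencing of 2 mouse tumors on the inDrop platform, which captures cells with barcoded beads in droplets. Both tumors came from injected mouse dysplastic stem cells, labelled DP-DSC, in female mice of the NuJ strain, a nude strain without a working thymus. A tubular adenocarcinoma, collected 13 weeks after the injection, and a cystic adenocarcinoma, collected 10 weeks after it, each gave 1 library.

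Macrophages that take up lipoproteins, dead cells and cell debris have to store, burn or export the lipid. Such cells in fat, artery walls, brain and tumors are known for a shared set of genes that includes Trem2, a lipid-sensing surface receptor, and Gpnmb, a transmembrane glycoprotein of lysosomes and the cell surface. Osteopontin (Spp1), a secreted ligand of integrins and CD44, and galectin-3 (Lgals3), a lectin that binds galactosides, are counted with them, but epithelial cells can make both. Lipoprotein lipase (Lpl) frees fatty acids from triglycerides, Fabp5 carries fatty acids inside cells, and arginase 1 (Arg1) splits arginine into ornithine and urea.

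For each of 11 clusters the table gives the genes whose fold, on a linear scale, is above 1.5, each with a p-value, and its columns name no tumor. A gene that appears under a cluster is called listed there. It is called raised if, in addition, its fold reaches 2 and its deposited p does not exceed 0.05. A fold sets a cluster against a reference that the table does not name, so it is a difference and not a level, and a missing entry does not mean that the gene was off. Since the sources used here give neither cells per cluster nor transcripts per cell, the depth behind each fold is unknown. There are no replicates, no fold has an error, and no order among clusters or genes can be tested.

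Although the samples are labelled tumor cells, several clusters carried markers of other cells. Cluster 4 was macrophage-like, with 11 of 11 macrophage markers raised; 3 of 9 dendritic, 1 of 9 fibroblast and 1 of 4 named mast cell markers were raised there too, and it listed no neutrophil, T and NK, erythroid, surface mucous or general epithelial marker. Cluster 8 also had all 11 raised, together with 5 of 9 dendritic cell, 2 of 7 named T and NK cell and 1 of 8 named neutrophil markers, and has no single name here. The authors' deposited table has the last of these, Ngp, at 11.7 and the T and NK markers Nkg7 and Cd8a at 46.3 and 23.3 in cluster 8; their part in its folds was not tested. Cluster 10 had 6 of 8 named neutrophil markers raised and is called neutrophil-like here, but it was mixed. Raised beside them were 6 of 11 macrophage, 5 of 7 named T and NK cell and 3 of 9 dendritic cell markers. The part of these other cells in its folds was not tested. Cluster 11 was fibroblast-like, with 9 of 9 fibroblast markers raised and 0 of 11 macrophage markers listed. Surface mucous markers of the stomach had 6 of 7 named genes raised in cluster 6 and 7 in cluster 9, mast cell markers 3 of 4 in cluster 5, and endothelial markers at most 2 of 6, in clusters 9, 10 and 11.

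All 7 genes were listed somewhere and none was missing from the table. Of 77 pairs of a gene and a cluster, 16 were listed and 8 raised. Cluster 4 listed 5 of the 7. The other members, Lgals3 and Fabp5, were listed in clusters 2 and 7 alone. For them the listed folds do not bear out the name of lipid-associated macrophage genes, though an unlisted gene need not be off. In cluster 4, 4 of the 7 genes were raised, where 18.6% of all named genes were raised. In cluster 8, 2 of the 7 were raised, against 6.36% of all named genes. Clusters 2 and 7 each had 1 of the 7 raised, with shares of all named genes of 2.89% and 3.42%. In clusters 10 and 11, 0 of the 7 were raised, against 4.90% and 17.0% of all named genes. Clusters 1, 3, 5, 6 and 9 listed none of the 7, while they listed 6.34%, 29.9%, 20.6%, 36.4% and 38.9% of all named genes and had 1.82%, 4.0%, 4.32%, 20.3% and 26.6% raised. The listed members numbered 5 in cluster 4 and 4 in cluster 8, where 31.5% and 26.4% of all named genes were listed. There were 2 in each of clusters 2, 7 and 10, where 9.07%, 12.1% and 18.9% of all named genes were listed, and 1 in cluster 11, where 25.7% were. These shares only place the counts, since the genes were picked with these values known.

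**Figure D1:**
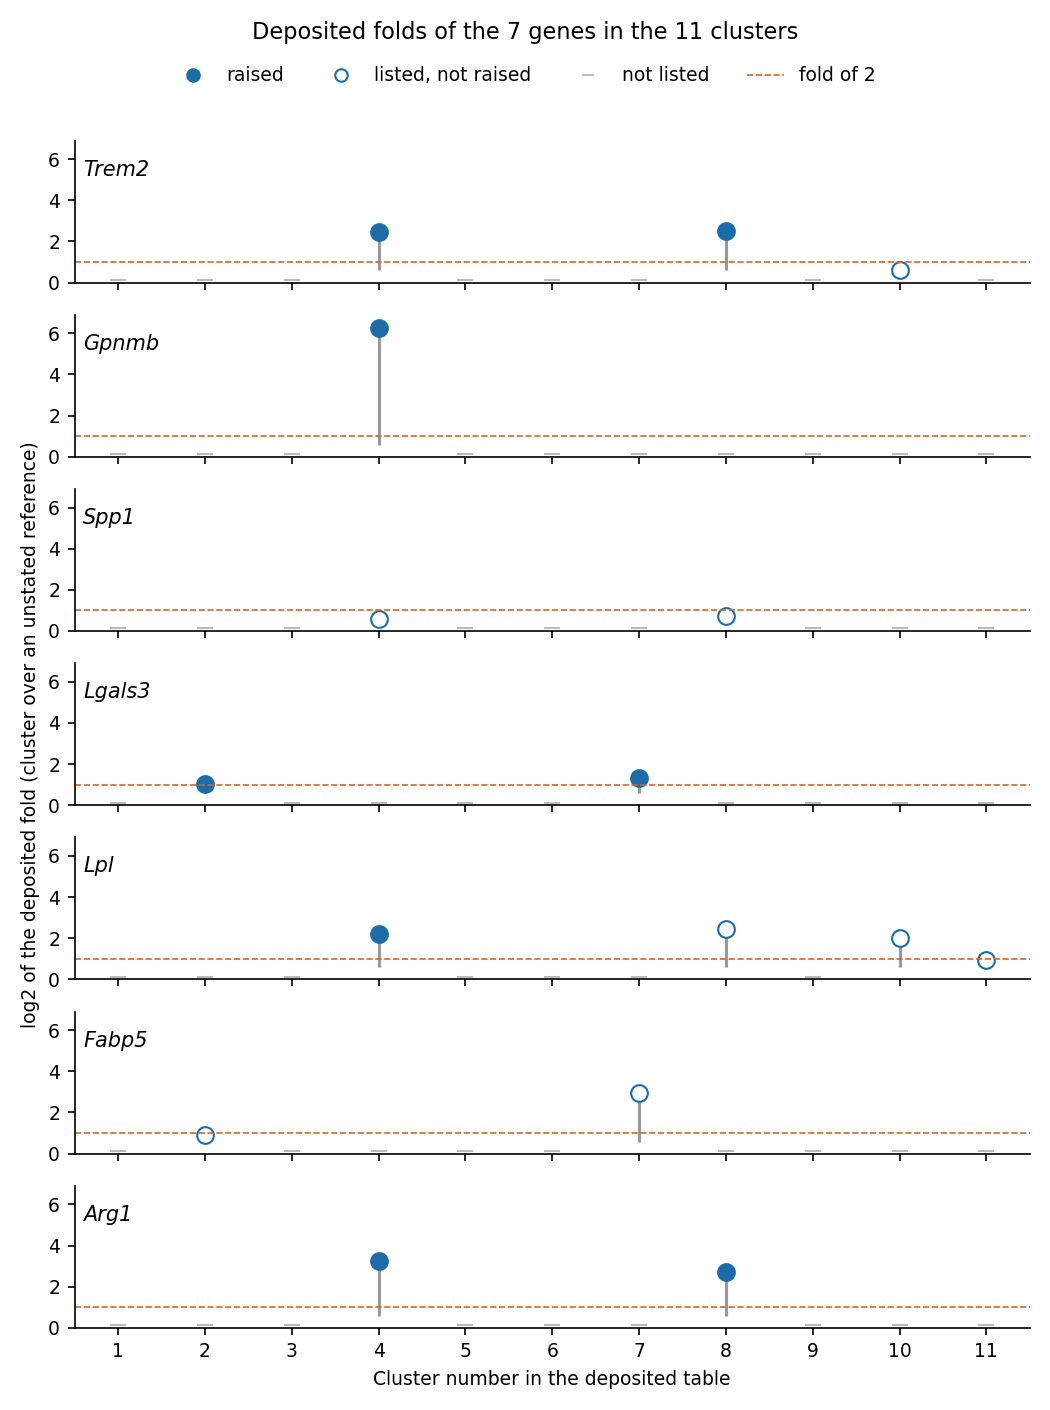
Log2 of the deposited fold of each gene (vertical axis) in clusters 1 to 11 (horizontal axis), 1 panel a gene; filled circles are raised, open circles are listed but not raised, and grey dashes mark clusters that do not list the gene. Trem2 and Arg1 were raised in clusters 4 and 8, Gpnmb and Lpl in cluster 4, and Lgals3 in clusters 2 and 7, while Spp1 and Fabp5 were raised nowhere.

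The sequence before the start site is shown for 3 of these genes. They were listed in cluster 4, with very different folds, and had an entry in the RefSeq promoter table of GRCm38.p6. Whether the sequence has a part in those folds was not tested. Each run holds the 250 bases before the transcript start, 5′ to 3′. Capitals mark matches, on either strand, to any of 5 short motifs. The E-box CACGTG and the M-box core CATGTG are bound by factors such as Mitf and Tfeb. The others are the AP-1-like pattern TGANTCA, the ETS core GGAAGT and the nuclear receptor half-site AGGTCA. The AP-1-like pattern is a loose form of the AP-1 site, in which N is any base.
Trem2 (chr17:48346151-48346400, + strand): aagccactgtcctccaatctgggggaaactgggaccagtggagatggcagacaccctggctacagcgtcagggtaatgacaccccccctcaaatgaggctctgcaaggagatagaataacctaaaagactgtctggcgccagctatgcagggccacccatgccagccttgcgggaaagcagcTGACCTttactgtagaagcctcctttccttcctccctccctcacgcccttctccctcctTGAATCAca
Gpnmb (chr6:49036268-49036517, + strand): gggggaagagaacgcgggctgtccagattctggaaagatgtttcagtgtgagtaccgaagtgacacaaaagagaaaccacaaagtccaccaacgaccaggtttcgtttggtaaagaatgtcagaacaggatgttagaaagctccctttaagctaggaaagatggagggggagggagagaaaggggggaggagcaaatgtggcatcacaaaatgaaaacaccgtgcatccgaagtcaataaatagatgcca
Spp1 (chr5:104434861-104435110, + strand): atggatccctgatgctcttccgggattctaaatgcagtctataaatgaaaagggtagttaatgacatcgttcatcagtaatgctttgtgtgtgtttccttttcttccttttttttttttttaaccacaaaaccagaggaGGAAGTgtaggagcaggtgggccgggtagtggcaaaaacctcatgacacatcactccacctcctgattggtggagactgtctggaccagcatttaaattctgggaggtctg
The Trem2 window had 1 match to the loose AP-1-like pattern, with A as its N, at positions -9 to -3 from the start. It also had 1 half-site on the opposite strand, at -68 to -63. Spp1 had 1 ETS core, at -111 to -106. A second RefSeq start of Spp1, with the window chr5:104435942-104436191, had 0 matches and is not printed, and Gpnmb had 0 matches to the 5 motifs. None of the matches overlapped. Among 32851 RefSeq windows of the same length, 6.75% held the AP-1-like pattern, 14.0% the half-site, 19.7% the ETS core, 6.02% the E-box and 12.3% the M-box core. Lgals3 also had an entry, with 0 matches, and is not printed, and Lpl, Fabp5 and Arg1 are named only.

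Trem2, the receptor, had in the authors' deposited table folds of 5.45 for cluster 4, 5.71 for cluster 8 and 1.53 for cluster 10. It was raised in clusters 4 and 8 and sat close to the table's lower limit in the mixed cluster 10, where its deposited p was above 0.05. In the table's own order by p it was number 216 of 5762 genes in cluster 4 and number 120 of 4844 in cluster 8. Its gene lies on chromosome 17 from 48346401 to 48354147, on the plus strand. The same pair of raised clusters, 4 and 8, was found for 409 of the 18319 genes (2.23%); the comparisons may share reference cells.

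Gpnmb, at 76.7, had the highest fold that the authors' deposited table gives to any of the 5762 genes listed in cluster 4, and it was listed in no other cluster. By p it was number 1333. Of the 7 genes, it alone was absent from cluster 8 while raised in cluster 4. The gene lies on chromosome 6 from 49036546 to 49070929, on the plus strand. Being listed in cluster 4 alone was shared by 455 genes (2.48%).

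**Figure D2:**
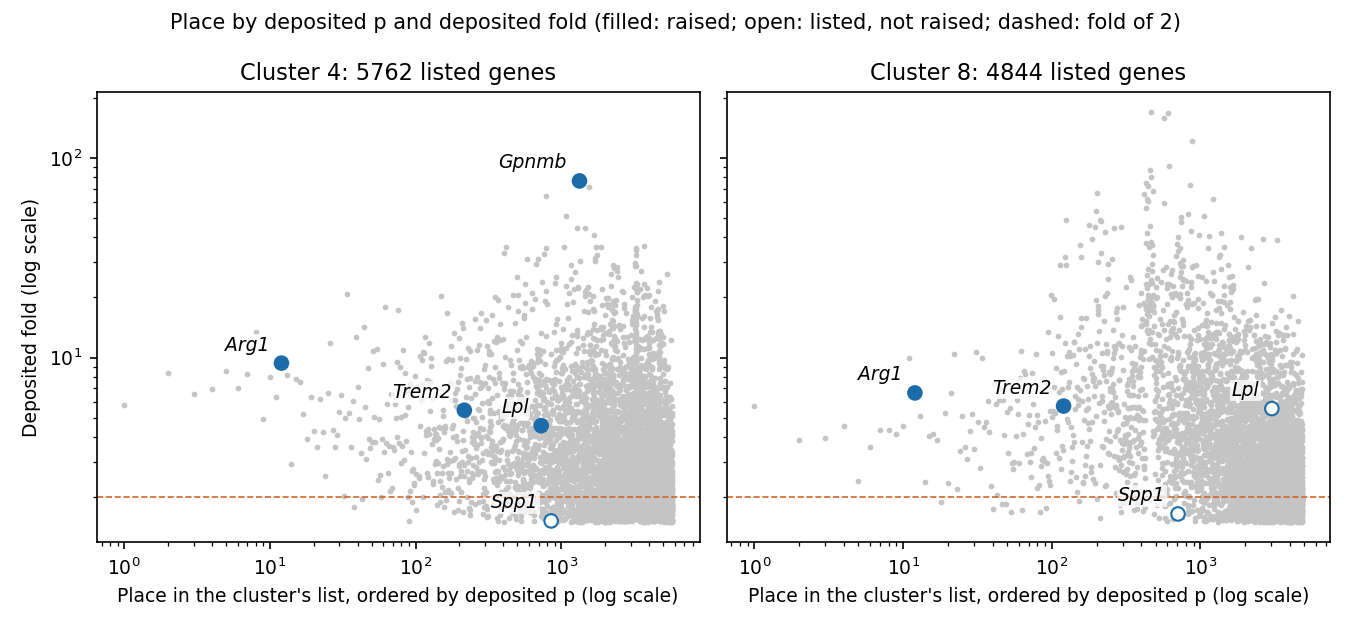
Deposited fold (vertical axis, log scale) against place in the cluster's list by deposited p (horizontal axis, log scale) for every gene listed in cluster 4 (left) and cluster 8 (right), with the 7 genes marked where listed. Arg1 stood at place 12 in both, and Gpnmb had the top fold of cluster 4 at place 1333.

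Among the secreted proteins, Spp1 was the least distinct. Its folds were, in the authors' deposited table, 1.52 for cluster 4 and 1.65 for cluster 8, and no other cluster listed it. Both passed the threshold on the deposited p but stayed under a fold of 2, and by fold Spp1 was number 5700 of 5762 in cluster 4. Spp1 lies on chromosome 5 from 104435118 to 104441050. A predicted gene, Gm42793, overlaps its first exon and intron on the same strand, and the sources used here do not say how reads over both were counted. Gm42793, looked up after the values were seen, was listed in cluster 4 alone, where the authors' deposited table has it at 35.6, so the fold of Spp1 is uncertain.

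Lgals3 had in the authors' deposited table folds of 2.02 for cluster 2 and 2.50 for cluster 7, both raised, and clusters 4, 8 and 10 did not list it. The value of 2.02 lay just inside the threshold of 2, and 1.95 for Lpl in cluster 11 just outside it. Cluster 2 had 5 of 6 named erythroid markers and 0 of 11 macrophage markers raised; the authors' deposited table listed 2 of these there, Mrc1 at 1.92 and C1qa at 1.62. It also listed, without any being raised, 4 of 8 named neutrophil, 1 of 9 dendritic cell and 2 of 6 named endothelial markers. The authors' deposited table has Mmp9 highest of the neutrophil ones at 52.9, with S100a8 at 5.54. Epithelial Krt8 and surface mucous Psca were listed too, not raised, at 1.98 and 7.40 in the authors' deposited table. Trem3 and Trem1, TREM family genes, were likewise listed but not raised there, with 15.6 and 14.1 in the authors' deposited table. Cluster 7 listed 0 of 11 macrophage markers and had 2 of 9 general epithelial markers raised, which the authors' deposited table puts at 2.81 (Krt18) and 2.74 (Cdh1). The part of erythroid, neutrophil or epithelial cells in these folds was not tested. Lgals3 lies on chromosome 14 from 47367751 to 47386160, and only 30 genes (0.164%) were raised in clusters 2 and 7 and nowhere else.

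Lpl was listed in more clusters than any other of the 7. Its folds in the authors' deposited table were 4.55 for cluster 4, 5.55 for cluster 8, 4.08 for cluster 10 and 1.95 for cluster 11. Only the value in cluster 4 was raised: the larger one in cluster 8 and that in cluster 10 had a deposited p above 0.05, and that in the fibroblast-like cluster 11 fell short of a fold of 2. Listing in exactly these 4 clusters was shared by 103 genes (0.562%). Lpl lies on chromosome 8 from 68880491 to 68907448.

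Fabp5, the fatty acid carrier, followed the clusters of Lgals3. Its folds in the authors' deposited table were 1.85 for cluster 2 and 7.63 for cluster 7, both with a deposited p above 0.05, so neither was raised. Clusters 4, 8 and 10 did not list it. The gene lies on chromosome 3 from 10012548 to 10016607. The annotation also holds a processed pseudogene, Fabp5l2, which the table does not name, and reads shared with it could be split, so the values of Fabp5 are uncertain.

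Arg1, the arginine enzyme, came earliest by p of the 7 genes. It was number 12 in both cluster 4 and cluster 8, where the authors' deposited table has folds of 9.37 and 6.65. It was raised in both, and no other cluster, the mixed cluster 10 included, listed it. Its fold exceeded that of 93.0% of the listed genes in cluster 4 and 82.8% in cluster 8. Arg1 lies on chromosome 10 from 24915221 to 24927484, on the minus strand.

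In clusters 4 and 8 the listed members covered a wider range of folds than the macrophage markers. For cluster 4, the 11 markers had in the authors' deposited table a median fold of 4.30, with Aif1 lowest at 2.31 and Cd68 highest at 8.90. Of the members listed there, Gpnmb and Arg1 lay above that range, Trem2 and Lpl within it and Spp1 below it. Cluster 8 had in the authors' deposited table a marker median of 5.10, with Cd14 lowest at 2.38 and Fcgr1 highest at 6.11. Arg1 lay just above that range, Trem2 and Lpl inside it and Spp1 below. Aif1 reached 14.3 for cluster 10 in the authors' deposited table, while Trem2 and Lpl were listed there without being raised. Over all listed genes, the authors' deposited table has a median fold of 2.76 for cluster 4, 2.97 for cluster 8 and 3.92 for cluster 10.

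**Figure D3:**
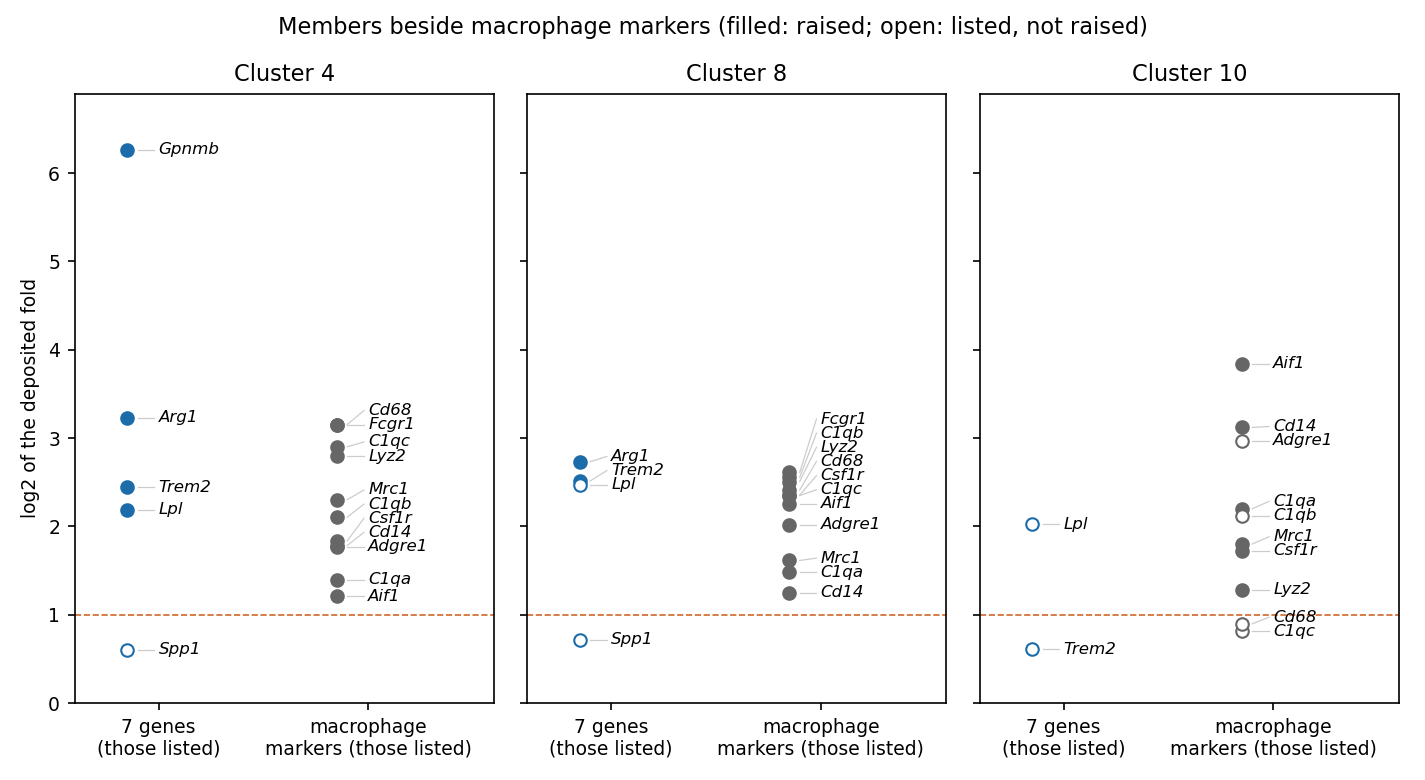
Log2 of the deposited fold (vertical axis) of the listed members (left column) and the listed macrophage markers (right column) in clusters 4, 8 and 10; filled circles are raised and the dashed line is a fold of 2. In cluster 4 Gpnmb and Arg1 lie above all 11 markers and Spp1 below them.

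Further genes of the same processes were taken from 11 lists, ordered here by the member they belong to. The lists hold 106 genes, of which the table names 95. Of these 95, 42 were raised in cluster 4, 27 in cluster 8 and 20 in cluster 10, or 44.2%, 28.4% and 21.1%. Against the shares of all named genes raised, 18.6%, 6.36% and 4.90%, these were larger, in lists chosen with results of these data known. Cluster 7 had 8 of the 95 raised and cluster 2 had 4, or 8.42% and 4.21%, against 3.42% and 2.89% of all named genes. In clusters 6, 9 and 11 the 14, 14 and 16 raised, or 14.7%, 14.7% and 16.8%, lay below the shares of all named genes, 20.3%, 26.6% and 17.0%. The count was 0 in cluster 1 and 2 each in clusters 3 and 5, also below those shares.

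Most signalling partners of Trem2 were raised in clusters 4, 8 and 10. Of 8 genes, cluster 4 had 7 raised, cluster 8 had 5 and cluster 10 had 6. The shares of all named genes raised in these clusters were 18.6%, 6.36% and 4.90%. For cluster 4 the authors' deposited table has the adaptor Tyrobp, through which Trem2 signals, at 5.21, the exchange factor Vav1 at 4.02, the kinase Syk at 4.01 and the phosphatase Inpp5d at 3.80. Apoe, an apolipoprotein that binds Trem2, had in the authors' deposited table folds of 3.34 for cluster 4, 4.36 for cluster 8 and 2.43 for cluster 10, raised in all 3. Of 5 other TREM family genes, 2 were raised in cluster 4, none in cluster 8 and 3 in cluster 10. Cluster 10 had, per the authors' deposited table, Treml4 at 40.6, Trem3 at 4.01 and Trem1 at 2.51.

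Around Gpnmb, cluster 4 had 3 of 6 genes raised, cluster 8 had 2 and cluster 10 had 1. The shares of all named genes raised in these clusters were 18.6%, 6.36% and 4.90%. Cluster 9 also had 2 of the 6 raised, against 26.6% of all named genes. The authors' deposited table has the related transcription factors Mitf, Tfe3 and Tfeb, which act on lysosomal genes, at 4.52, 3.87 and 3.72 for cluster 4. They were not raised in cluster 4 alone. Mitf was also raised in clusters 8 and 10, at 2.56 and 5.16 per the authors' deposited table. Tfeb was also raised in cluster 9, at 2.14 per the authors' deposited table. A fold of at least 3 left 0 of the 6 raised in cluster 8. Osteopontin receptors had 2 of 8 raised in cluster 4, 3 in cluster 8 and 0 in cluster 10. Raised in cluster 8 were the integrin chains Itga5 and Itga4, which the authors' deposited table has at 3.67 and 2.71, and the hyaluronan receptor Cd44, just past a fold of 2. The share in cluster 4 was near that of all named genes, and these counts hung on the thresholds: a fold of at least 3 left 1 each in clusters 4 and 8, a deposited p of at most 0.001 left 2 in cluster 4 and 0 in cluster 8, and any deposited p gave 5 in cluster 8 and 3 in cluster 10.

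The galectin list, made of 7 other galectin genes and Lgals3bp, which codes for the galectin-3 binding protein, had 1 of 8 raised in cluster 4 and 0 in clusters 8 and 10. Clusters 6 and 11 had 3 each. The shares of all named genes raised were 18.6%, 6.36% and 4.90% in clusters 4, 8 and 10, and 20.3% and 17.0% in clusters 6 and 11. Per the authors' deposited table, cluster 6 had Lgals7 at 4.96, Lgals4 at 2.68 and Lgals2 at 2.65. Cluster 11 had Lgals8 at 8.34, Lgals1 at 2.83 and Lgals9 at 2.51, again per the authors' deposited table. Where Lgals3 was raised, the authors' deposited table has Lgals4 raised at 2.22 (cluster 2), and Lgals1 and Lgals3bp raised at 2.59 and 3.42 (cluster 7).

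Lipoprotein and lipase genes had 3 of 10 named members raised in cluster 4, 3 in cluster 8 and 1 in cluster 10, while cluster 6 had 4. Cluster 9 also had 3 raised, and cluster 11 had 2. Those of cluster 6 were, with folds from the authors' deposited table, the lipase chaperone Lmf1 (4.40), the lipase inhibitor Angptl4 (3.31) and the intracellular lipases Pnpla2 (3.13) and Lipe (2.79). Clusters 4 and 8 had other members of the list raised. Raised in cluster 11 were Mgll at 38.9 and Angptl4 at 20.1, per the authors' deposited table. Among all named genes, 18.6%, 6.36%, 4.90% and 20.3% were raised in clusters 4, 8, 10 and 6. In clusters 9 and 11 the shares were 26.6% and 17.0%. Apoc2, the activator of Lpl, had in the authors' deposited table folds of 4.96 for cluster 4 and 8.19 for cluster 8. Lipa, the lysosomal acid lipase, had 3.35 for cluster 4 and 7.33 for cluster 8 per the authors' deposited table.

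Genes of lipid uptake, storage and efflux had 9 of 15 raised in cluster 4, against 6 in cluster 8 and 3 in cluster 10. The shares of all named genes raised in these clusters were 18.6%, 6.36% and 4.90%. Msr1, a scavenger receptor, had in the authors' deposited table folds of 13.4 for cluster 4 and 6.14 for cluster 8. Cd36, a receptor for oxidised lipoprotein and fatty acids, had 11.4 for cluster 4 and 6.68 for cluster 8 per the authors' deposited table. Lrp1 and Olr1, which also take up lipoproteins, stood at 5.26 and 4.86 for cluster 4 per the authors' deposited table. Olr1 was also raised in cluster 10, at 9.82 per the authors' deposited table. Lrp1 was also raised in clusters 8 and 11, with 4.10 and 3.33 in the authors' deposited table. Plin2, the coat protein of lipid droplets, was raised in clusters 4 and 8. At a fold of at least 3 the order of the clusters turned, with 4 of the 15 raised in cluster 4 and 5 in cluster 8, and any deposited p gave 6 in cluster 10.

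Of 9 other fatty acid binding protein genes the table names 3, with 1 raised in cluster 8 and 0 in clusters 4 and 10. The shares of all named genes raised were 18.6%, 6.36% and 4.90% in clusters 4, 8 and 10. The authors' deposited table has Fabp3 raised in cluster 8, at 6.46, and Fabp4 raised in cluster 11, at 6.40. The next list held 11 transcription factors, those that sense lipids together with Bhlhe40 and Bhlhe41, which are not counted here as lipid sensors. It had 5 of 11 raised in cluster 4, 0 in cluster 8 and 2 in cluster 10, against the same shares of all named genes. Those raised in cluster 10 were Ppara and Bhlhe40, while cluster 4 listed neither Bhlhe40 nor Bhlhe41. Bhlhe41 was among those raised in clusters 6 and 9. Cluster 4 had, per the authors' deposited table, the liver X receptor Nr1h3 at 6.58, the sterol-responsive factor Srebf1 at 2.60, the receptor partner Rxra at 2.31 and the fatty acid receptor Ppard at 2.17. Nr1h3 was listed but not raised in cluster 8, with 3.23 in the authors' deposited table. Cluster 9 had 4 of the 11 raised, against 26.6% of all named genes. Clusters 5, 6 and 11 had 2 each, against 4.32%, 20.3% and 17.0% of all named genes. The counts in clusters 6 and 11 were near those shares. Srebf1 was also raised in clusters 6 and 9, at 4.33 and 2.88, and Rxra in cluster 11, at 4.22, per the authors' deposited table. The counts of clusters 4, 8 and 10 too hung on the thresholds. A fold of at least 3 left 1 in cluster 4, and any deposited p gave 3 in cluster 8 and 4 in cluster 10. A deposited p of at most 0.001 left 3 in cluster 4 and 0 in cluster 10.

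Genes of arginine metabolism other than Arg1 had 2 of 8 raised in cluster 4, 1 in cluster 8 and 1 in cluster 10, and 3 in cluster 11. Cluster 2 also had 2 raised, and clusters 6 and 9 had 1 each. Of all named genes, 18.6%, 6.36%, 4.90% and 17.0% were raised in clusters 4, 8, 10 and 11. In clusters 2, 6 and 9 the shares were 2.89%, 20.3% and 26.6%. Raised in cluster 2 were Odc1 at 6.57 and Oat at 2.26, per the authors' deposited table. For cluster 4, the authors' deposited table has the arginine transporter Slc7a2 at 12.3 and the nitric oxide synthase Nos2, which uses the same substrate as Arg1, at 5.42. Cluster 11, per the authors' deposited table, had Nos2 at 30.0, the ornithine enzyme Oat at 5.32 and the transporter Slc7a1 at 2.84. Arg2, the mitochondrial arginase, had a fold of 30.2 for cluster 10 per the authors' deposited table, and Arg1 was not listed there.

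Further genes often counted with lipid-associated macrophages had 9 of 15 raised in cluster 4, 8 in cluster 8 and 4 in cluster 10. A fold of at least 3 left 4 in cluster 8, and any deposited p gave 7 in cluster 10. Highest among them in cluster 4 were, with folds from the authors' deposited table, the heme oxygenase Hmox1 (10.98), the chemokine Ccl6 (8.56), the elastase Mmp12 (5.93) and the protease inhibitor Cst7 (4.96). Cluster 4 listed neither tetraspanin of the list. The authors' deposited table has Cd9 raised in cluster 6, at 2.01, and Cd63 raised in clusters 7 and 11, at 3.53 and 7.57.

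**Figure D4:**
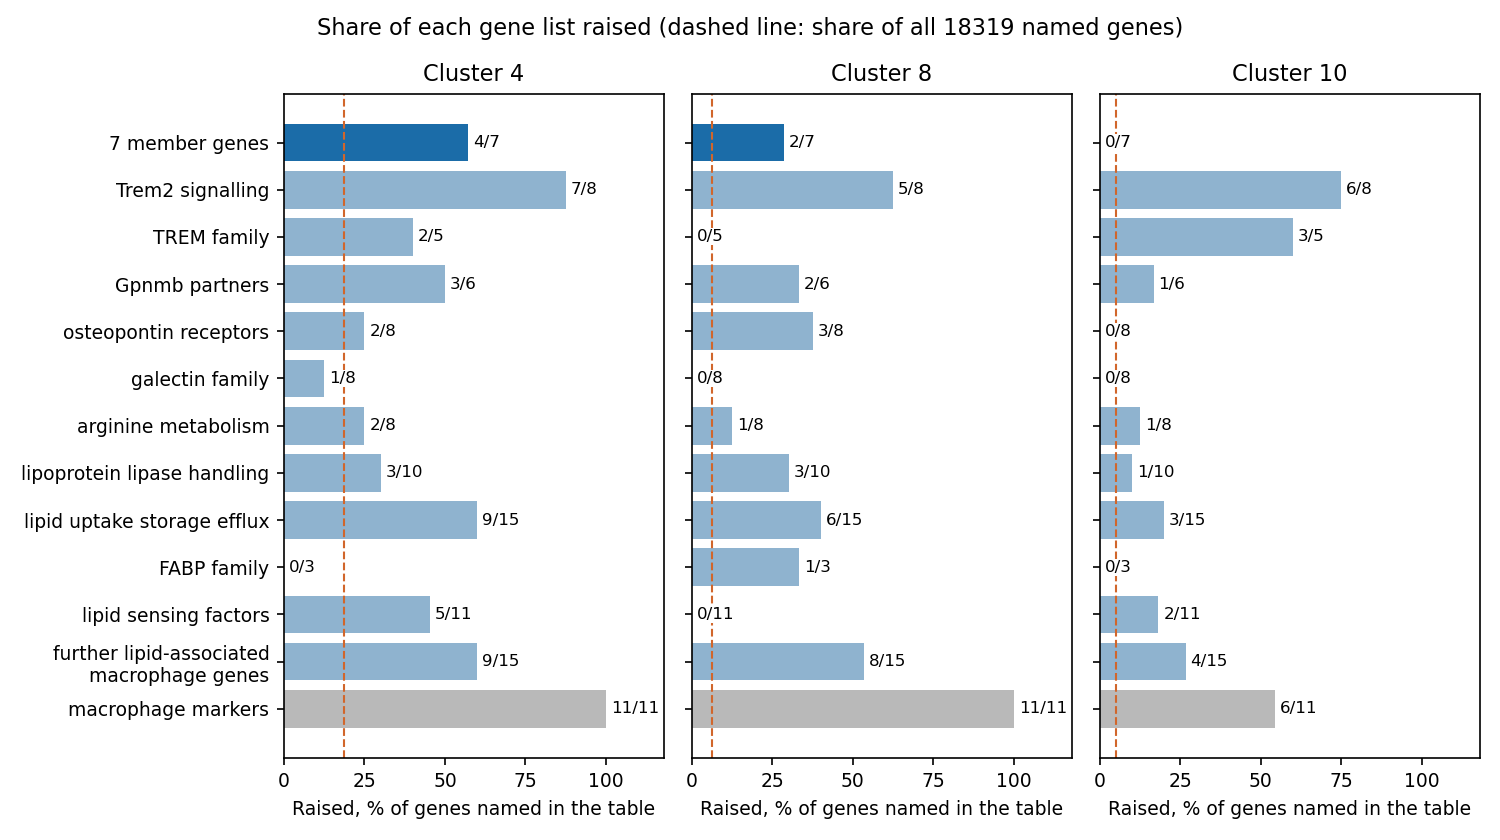
Share of the named genes of each list that were raised (horizontal axis, percent) in clusters 4, 8 and 10, with the count beside each bar; the dashed line is the share of all 18319 named genes raised, 18.6%, 6.36% and 4.90%. The Trem2 signalling list had 7, 5 and 6 of 8 genes raised, and the galectin list 1, 0 and 0 of 8.

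The genes most like each member were found by the Euclidean distance of log2 folds over the 11 clusters, with an unlisted cluster set to 0. Nearest to Arg1 were the dipeptidase Dpep2, the Fc receptor Fcgr1 and the chemokine Ccl9, at distances of 0.0966, 0.144 and 0.159. For cluster 4 the authors' deposited table has these at 9.53, 8.88 and 8.39, and for cluster 8 at 6.23, 6.11 and 6.67, with all 3 raised in both. The cobalamin carrier Tcn2 was nearest to Trem2, at a distance of 0.283, then Rtf2 at 0.301 and Rgs14 at 0.374. Gpnmb was nearest to Egr2, Cd209b and Fam169b, at 0.252, 0.580 and 0.783, each listed in cluster 4 alone. For Lpl the nearest genes were St3gal1, Zeb2os and Klhl5, at 0.454, 0.516 and 0.624. Spp1 had the clathrin heavy chain gene Cltc at 0.285, Sh3bgrl3 at 0.520 and the cathepsin Ctsd at 0.528. Lgals3 had Myo9a, Lca5 and Eif4a2, at 0.159, 0.214 and 0.275, and Fabp5 had Wdr66, Tnk2 and Uqcrc2, at 0.183, 0.217 and 0.248, all 6 listed in clusters 2 and 7. These choices hung on the measure: of the 21 genes, 11 were named again when an unlisted cluster was set to the table's lowest fold, and 2 with Pearson correlation.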

How the data were processed

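Per the labels' protocols, single cells of 2 tumors were encapsulated on the inDrop platform and libraries followed TruDrop, 1 per tumor type. The submitters' processing notes name the build mm10, STAR 2.7.3a, Partek and DESeq2 3.5 without giving their roles. The authors deposited, for each of 11 clusters, a fold on a linear scale, that is a ratio, as headers call it. They also deposited a p-value, per the file headers, whose test and adjustment are not stated. Because cells are not replicates, that p served only to call genes and to give their place in a cluster's list, and is not printed. With 0 columns of per-sample values in the table, the tumors could not be compared. The sources used here do not give cell filters, doublet treatment, clustering or cluster sizes.

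Genes were called raised at a fold of at least 2 and a p of at most 0.05, and counted against the 18319 genes named (Python 3.11.15, pandas 2.3.3); the counting was tested on simulated data. The members, the 11 pathway lists, the 10 cell type lists and the call rule were chosen with earlier results of these data known. Of the macrophage list, 1 marker is not reported here and is left out of its counts and medians. Named are the 7 genes; of each pathway list, at most 4 raised members of largest fold in the cluster with most raised; at most 3 markers of a cell type list; and the 3 nearest genes of each member, leaving out predicted and ribosomal genes. Named outside this rule, after their values were seen, were Gm42793, Bhlhe40, Bhlhe41 and Ppara. So were those list members whose values are given in another cluster or beside the listed ones. Gene positions are those of GENCODE M21 on GRCm38, 1-based. Alternatives changed the fold, the p and the likeness measure.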

Additional observations from a re-analysis of the deposited data

How the results depend on the processing

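The counts rest on the 2 thresholds, and each alternative changed 1 of them. With any fold above 1.5 allowed, Spp1 was raised in 2 clusters and Lpl in 2, and cluster 11 had 1 of the 7 genes raised. That setting called 20.6% of all named genes in cluster 11. A fold of at least 3 left 0 of the 7 raised in clusters 2 and 7 and 0 clusters for Lgals3. It left 1.92% and 2.01% of all named genes raised in clusters 2 and 7. Any deposited p gave 2 of the 7 in cluster 7, 1 in cluster 10, 3 clusters for Lpl and 1 for Fabp5. It called 10.1% of all named genes in cluster 7 and 15.9% in cluster 10, where the count of 1 lay near that share. The counts of the 7 genes in clusters 4 and 8 stayed within 1.5 times under all 4 alternatives. For the 95 genes of the pathway lists, a fold above 1.5 gave 5 in cluster 5. A fold of at least 3 gave 2, 1, 1, 9, 4, 4 and 10 for clusters 2, 3, 5, 6, 7, 9 and 11. Any deposited p gave 2, 9, 10, 9 and 34 for clusters 1, 2, 3, 5 and 10. The shares of all named genes there were 5.65%, 7.39%, 22.0%, 16.3% and 15.9%. A deposited p of at most 0.001 gave 2, 1, 1 and 17 for clusters 2, 3, 5 and 8. The shares of all named genes there were 1.24%, 0.786%, 2.01% and 2.50%. Small counts of single lists moved too: a fold above 1.5 gave 3 of 8 of the galectin list in cluster 4 and a fold of at least 3 gave 0, a deposited p of at most 0.001 left 1 of 8 arginine genes in cluster 4 and 0 in cluster 8, and any deposited p gave 3 of 10 lipoprotein and lipase genes in cluster 10. Single-list counts in clusters 4, 8 and 10 stand beside these shares of all named genes. A fold above 1.5 called 23.5%, 6.81% and 5.11%, and a fold of at least 3 called 12.1%, 5.32% and 4.55%. Any deposited p called 23.2%, 20.3% and 15.9%, and a deposited p of at most 0.001 called 12.7%, 2.50% and 2.22%. The cells and transcripts behind each fold are unknown. No paired analysis was possible because there is 1 library per tumor type and the result comes from no test.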
